A study of Mus musculus with 4 samples.

Results

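The genes described here are 31 mouse genes of mismatch, base excision and nucleotide excision repair, taken by symbol from the 32285 genes of a single-cell RNA count matrix. They comprise 5 mismatch repair genes (Msh3, Msh6, Mlh3, Pms2, Exo1), 7 DNA glycosylases (Ogg1, Mutyh, Nthl1, Neil1, Neil3, Ung, Tdg) and 8 genes of the later steps of base excision (Apex1, Polb, Xrcc1, Lig1, Lig3, Parp1, Parp2, Fen1). The other 11 act in nucleotide excision repair, 5 in damage recognition (Xpc, Ddb1, Ddb2, Ercc6, Ercc8) and 6 in verification, unwinding and incision (Xpa, Ercc1, Ercc2, Ercc3, Ercc4, Ercc5). A set of 6 members with known roles at replication forks or in replicating cells, Msh6, Exo1, Ung, Neil3, Lig1 and Fen1, was kept apart from the 25 others, which are called constitutive below. The lists were chosen with earlier results of these data known. Each member was compared between resting and cycling cells and between lineages within either state.

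Mismatch repair removes bases mispaired by the replicative polymerases. MutS complexes, in which Msh3 or Msh6 is one partner, find the mismatch, MutL complexes with Pms2 or Mlh3 license the cut, and the exonuclease Exo1 removes the strand. In base excision repair a glycosylase releases a single damaged or wrong base, the endonuclease Apex1 cuts the backbone, Polb fills the gap and a ligase closes it, with Parp1, Parp2 and the scaffold Xrcc1 handling the break. Nucleotide excision repair takes out a short stretch around a bulky lesion, found either by Xpc with the Ddb1-Ddb2 complex or by stalled RNA polymerase through Ercc6 and Ercc8. Lig1 and Fen1 also finish Okazaki fragments, so they serve both replication and repair. Blood stem cells mostly rest, and their progeny divide fast and, in the lymphoid lineage, cut and rejoin their antigen receptor genes.

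The cells were donor (CD45.2) hematopoietic stem and progenitor cells of C57BL/6 mice, sorted from the bone marrow 20 weeks after competitive transplantation. The groups were wild type donors (2 samples) and donors with a heterozygous Srcap mutation (2 samples), and 20000 sorted cells were the input for each sample. Cells of both groups came through the same transplantation, and the labels do not say how many mice a sample holds. Droplet 3' libraries were counted as unique molecular identifiers (UMIs), 1 per captured RNA molecule. The matrix tells the 4 libraries apart only by a barcode suffix that nothing in the files ties to a sample, so wild type and mutant cells were not compared and the libraries are numbered 1 to 4. They are not replicates of one group: values are given per library, or as their median and range, and no p-value was computed.

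After filtering, 41122 cells were kept, and 40050 of them had the 4000 UMIs that each cell was thinned to before it was gated. By the UMIs of an S phase list (40 genes) and a G2/M list (39 genes), neither of which holds a member, 15726 cells were resting, 8265 were in S phase and 12004 in G2/M, the last 2 classes together being called cycling. The share of resting cells ranged from 33.4% in library 2 to 47.4% in library 4, and 2600 of the resting cells lay at the limit of either list. Lineage gates asked for 3 or 4 marker genes of a set, cells of no gate are called ungated, and 739 cells of 2 gates were left out. These gates are ranges of marker detection and not cell types: 45.2% of stem-gated and 57.8% of lymphoid-gated cells held just the minimum number of markers. Library 2 stood apart, with the highest level of 62.5% of the genes tested in resting ungated cells, and Srcap itself was at 81.5 CPM (UMIs of a gene per 1000000 UMIs of all genes in the same cells) in library 2 against 52.8 to 58.8 in the others. Only 209 of 43940 barcode sequences occurred in more than 1 library. Doublets were in effect not removed.

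Cells entered a gate by holding its markers, so the marker levels describe the gates and are no independent check of them. Stem-gated resting cells held Hlf at 621 CPM and Procr at 195, lymphoid-gated resting cells Dntt at 1334, B-gated resting cells Cd79a at 1039, and megakaryocyte-gated resting cells Pf4 at 2916. Other markers of the same sets were far lower, such as Hoxb5 at 35.8 CPM in stem-gated and Gp1bb at 8.58 CPM in megakaryocyte-gated resting cells. The gate built on monocyte progenitor markers was mixed in resting cells. Irf8 stood at 2027 CPM, Ccr2 at 892, Lyz2 at 872, Ms4a6c at 366, Ly86 at 303 and Klf4 at 102. Csf1r stood at 2.24 CPM, F13a1 at 3.35 and Fcgr3 at 1.68. The gate is called the Irf8-Ccr2 gate here. Its cycling cells differed from its resting cells in these markers, and not all the same way. Csf1r (35.6 CPM), F13a1 (177), Ms4a6c (577) and Fcgr3 (4.99) were higher in cycling cells. Irf8 (1116 CPM), Ccr2 (374), Lyz2 (276) and Ly86 (201) were lower, and Klf4 (94.2) was close to its resting level.

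Cycling cells held more RNA of 5 of the 6 replication-linked repair genes than resting cells of the same gate and library in all 6 gates compared, and of Msh6 in 3 of them. How many of all genes were higher in all 6 gates was not counted. For the constitutive genes the median log2 difference was between -0.0007 and 0.23 in 5 of the gates and 0.83 in the sixth, the Irf8-Ccr2 gate (0.63 when centred on the median gene). Both lists were chosen with earlier results of these data known, so the contrast between them is a description and not a test. A gene was called higher or lower when its CPM, with a pseudocount of 1, was 1.5-fold or more apart, and the same way, in each of the 4 libraries, and was considered when the mean of both sides reached 5 CPM. In the ungated cells, the largest class with 8857 resting and 13573 cycling cells, 7 of 30 members considered were higher in cycling cells (Msh6, Exo1, Neil3, Ung, Lig1, Parp1, Fen1) and 0 were lower. Of all genes considered in that comparison, 8.36% were higher and 6.49% lower. Exo1 and Neil3 passed the level filter through cycling cells alone, so they had to differ; among the 27 members at 5 CPM or more on both sides 5 were higher, against 6.54% of such genes. The median log2 ratio of the 24 constitutive members considered was 0.03, against -0.06 over all genes, and the 4 replication-linked members present on both sides had a median of 2.68. CPM are shares of all RNA, and cycling cells held more UMIs (median 14009 against 7363 in ungated cells), so an unchanged CPM is not an unchanged number of molecules per cell.

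**Figure D1:**
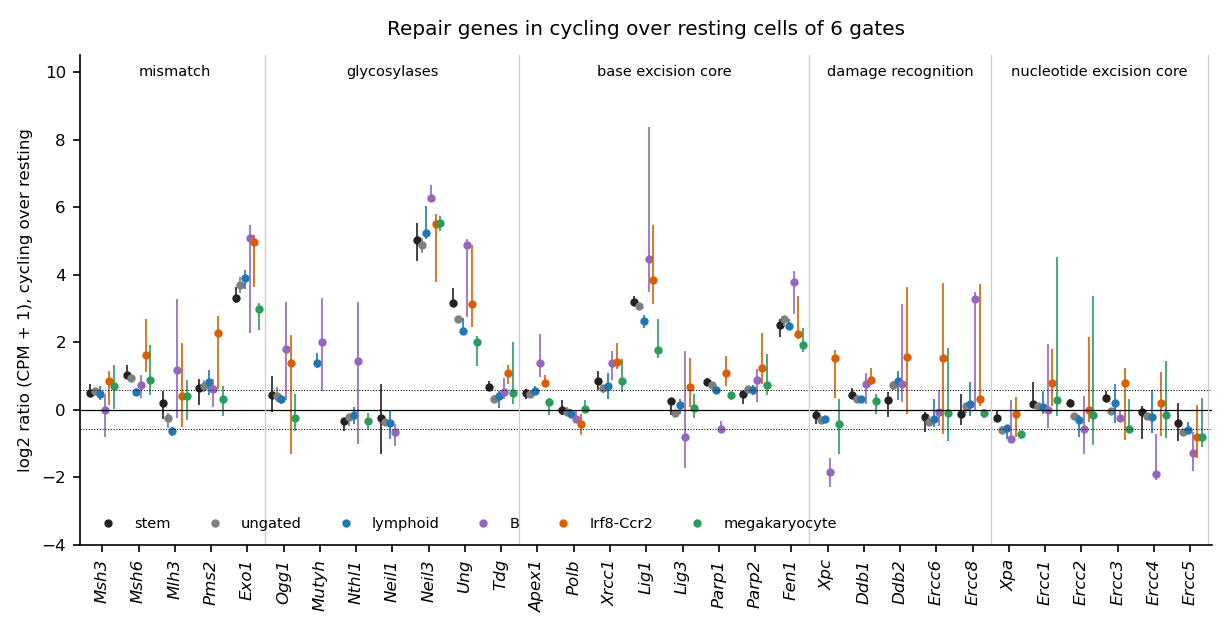
Log2 ratio of CPM plus 1 in cycling over resting cells for the 31 repair genes (x axis, grouped by role) in 6 gates. Points are medians of 4 libraries, vertical lines run from the lowest to the highest library, dotted lines mark 1.5-fold, and genes under the level filter in a gate are left out. Exo1, Neil3, Ung, Lig1 and Fen1 stand above the upper dotted line in every gate; the long lines belong to B, Irf8-Ccr2 and megakaryocyte cells, whose resting cells are few.

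Among the mismatch repair genes, Exo1, the strand-removing exonuclease, was at 1.33, 2.97, 1.37 and 2.39 CPM in resting ungated cells of libraries 1 to 4 and at 34.6, 42.3, 33.1 and 37.6 CPM in cycling ones. Every cycling library lay far above every resting one, a median log2 difference of 3.68. Msh6, the partner that recognises single mispaired bases, was at 31.9, 42.3, 34.6 and 31.4 CPM in resting and 62.4, 81.7, 61.2 and 65.5 CPM in cycling ungated cells, a log2 difference of 0.94. Its ranges did not overlap, and library 2 was the highest on both sides. Msh3, which recognises larger loops, differed by 0.56, short of the call, and Pms2 by 0.71 with 1 library below the call. Mlh3 differed by -0.64 in lymphoid-gated and -0.24 in ungated cells and was called in no gate. Pms2 overlaps Rsph10b on the same strand, so that its counts can include RNA of that gene.

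Of the glycosylases, Neil3 and Ung separated the states most widely. Neil3, which acts on oxidised bases in single-stranded DNA and on crosslinks at forks, was at 1.18, 1.02, 1.04 and 0.673 CPM in resting ungated cells and at 54.0, 66.8, 49.7 and 55.3 CPM in cycling ones (68 against 11465 UMIs). It was under 2 CPM in every library of the resting stem-gated cells too, and the 105 B-gated and 152 megakaryocyte-gated resting cells held 0 Neil3 UMIs. Taking 3 counts over the gate as the floor, Neil3 was at least 19.5-fold higher in cycling B-gated cells and at least 22.7-fold higher in cycling megakaryocyte-gated cells. Ung, which removes uracil from DNA, was at 6.84, 7.04, 6.84 and 6.85 CPM in resting and 49.0, 51.3, 51.9 and 48.1 CPM in cycling ungated cells. The libraries nearly coincided within each state and the states did not overlap. The 5 other glycosylases behaved differently from one another. Mutyh, which removes adenine opposite oxidised guanine, was under the level filter except in lymphoid-gated and B-gated cells, where the log2 ratio was 1.38 (called) and 2.01 (not called). Tdg, the thymine glycosylase, was called only in the Irf8-Ccr2 gate (1.10), and Ogg1, Nthl1 and Neil1 in no gate.

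In the later steps of base excision, the replicative ligase Lig1 went from 25.7, 24.6, 28.1 and 25.3 CPM in resting ungated cells to 220.5, 228, 226 and 220.5 CPM in cycling ones. The flap endonuclease Fen1 went from 14.6, 14.2, 13.9 and 13.5 CPM to 86.4, 93.5, 98.7 and 94.1. Both were higher by a factor far above the spread of the libraries, with log2 differences of 3.06 and 2.67. Lig3, the other ligase of the pathway, differed by -0.11, and the gap-filling polymerase Polb by -0.07. Parp1, the main break sensor, differed by 0.73 and was called in stem-gated, ungated and Irf8-Ccr2 cells. Parp2, Xrcc1 and Apex1 differed by 0.62, 0.63 and 0.47 in ungated cells, each with at least 1 library short of 1.5-fold. No member of nucleotide excision repair was called higher in cycling cells of any gate but Ddb1, in the Irf8-Ccr2 gate (0.87), which lost the call when centred on the median gene, as Ddb2 gained it in ungated cells (0.78). The incision nuclease Ercc5 and the lesion-binding Xpa leaned the other way in ungated cells, at -0.66 and -0.61, and Xpa was called lower in megakaryocyte-gated cells (-0.73).

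The same 5 members, Exo1, Neil3, Ung, Lig1 and Fen1, were called higher in all 6 gates with enough cells in both states, Msh6 and Parp1 in 3 gates, Apex1 and Xrcc1 in 2, and Mutyh, Pms2, Tdg, Parp2 and Ddb1 in 1. The share of all genes called higher in all 6 gates was not counted, and Exo1 and Neil3 passed the filter only through cycling cells in each of them. In stem-gated cells 7 of 30 members considered were higher and 0 lower, against 7.25% and 2.6% of genes; the 7 were those called in ungated cells. Of them Exo1, Neil3 and Ung passed the filter only through cycling cells, and at 5 CPM or more on both sides 4 of 26 were higher, against 5.47%. In lymphoid-gated cells 6 of 31 were higher (7.27% of genes) and 0 lower (4.16%), in B-gated cells 7 of 31 (10% of genes), in the Irf8-Ccr2 gate 13 of 28 (12.7% of genes, with 0 lower against 5.46%) and in megakaryocyte-gated cells 5 of 28 (4.75% of genes). Exo1 and Neil3 passed the filter only through cycling cells in these 4 gates, as did Mutyh in lymphoid-gated cells, Ung in B-gated cells, and Ung and Pms2 in the Irf8-Ccr2 gate. At 5 CPM or more on both sides the members higher were 3 of 28 in lymphoid-gated cells (5.49% of such genes), 4 of 24 in B-gated cells (8.6%), 9 of 20 in the Irf8-Ccr2 gate (9.57%) and 3 of 26 in megakaryocyte-gated cells (3.15%). The Irf8-Ccr2 count of 13 includes a shift of the median gene by 0.21, and was 7, with 0 lower, when the ratios were centred on that median (9.58% and 8.23% of genes). Lower in cycling cells were Xpc, Ercc4 and Ercc5 in B-gated cells (9.69% of genes) and Xpa in megakaryocyte-gated cells (1.3% of genes). The smallest of these classes held 105 B-gated and 152 megakaryocyte-gated resting cells in all.

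Within the cycle, the 6 replication-linked members did not move together. Ung was lower in G2/M than in S phase cells in all 6 gates that could be compared, and Neil3 was higher in all 6. In ungated cells Ung stood at 103, 108, 106 and 101 CPM in S phase and 17.0, 20.6, 16.2 and 16.7 CPM in G2/M, and Neil3 at 12.9, 16.0, 11.6 and 12.9 CPM in S phase and 78.1, 94.2, 74.7 and 80.6 CPM in G2/M. The phases did not overlap for either gene, and the directions were opposite. Over the gates the median log2 ratio ran from -2.34 to -3.05 for Ung and from 1.39 (neutrophil-gated) to 3.43 (stem-gated) for Neil3. They were the 2 of 30 members called in ungated cells, where 3.31% of genes were higher and 1.17% lower in G2/M. Elsewhere Msh6 was lower in G2/M in megakaryocyte-gated cells (-0.91), Apex1 was lower (-0.76) and Ercc1 higher (1.02) in stem-gated cells, and no other member was called. The calls of Apex1 and Ercc1 were both lost with 1 fewer marker gene asked for (-0.64 and 0.43) and with a second random thinning (-0.65 and 0.73). The shares of genes higher and lower in G2/M were 3.14% and 0.877% in stem-gated, 3.17% and 0.905% in lymphoid-gated and 2.76% and 0.863% in B-gated cells. They were 1.95% and 0.214% in neutrophil-gated and 3.33% and 0.939% in megakaryocyte-gated cells.

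A finer division of the ungated cells, made after the first values were seen, placed the maxima. Ung had a median of 6.85 CPM in resting cells, 33.7 in cells between the 2 states, 95.5 in S phase cells with 0 to 3 UMIs of the G2/M list and 114 in those with 4 to 9. It then dropped to 32.4 CPM in cells with 10 to 29 UMIs of that list and to 2.35 CPM in cells with 30 or more, below the resting level in every library. Neil3 went through 1.03, 1.73, 5.10, 21.9, 65.1 and 92.7 CPM over the same 6 classes and was highest in the last. Lig1 went through 25.5, 75.5, 214, 335, 280.1 and 106 CPM, and Exo1 through 1.88, 7.26, 29.3, 52.2, 42.3 and 25.3 CPM, so that both were highest in the fourth class and still above resting cells in the last. Msh6 (33.3, 49.1, 76.5, 84.6, 70.1 and 40.5 CPM) also peaked in the fourth class, and Fen1 (14.1, 27.5, 77.8, 114, 120.4 and 68.2 CPM) in the fifth. Pcna, the sliding clamp of replication and of the last repair steps, ran from 81.1 CPM in resting cells to 468 in the fourth class and 141 in the last. The S phase and G2/M lists that order these cells contain none of these genes.

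The same course, at smaller size, was seen in members kept among the constitutive ones. Msh3 was at 17.6 CPM in resting cells, 33.2 in the fourth class and 19.9 in the last, Apex1 at 90.2, 158 and 82.5, and Parp1 at 107, 207 and 151. Parp2 (38.2 CPM in resting cells) and Xrcc1 (12.5) were at 64.4 and 20.2 CPM in the last class, with no late drop to the resting level. Xpa went from 52.8 CPM in resting cells down to 30.7 in the fifth class and 36.6 in the last, and Ercc5 from 16.1 to 8.43 and 11.4. Polb stayed between medians of 25.2 and 28.5 CPM in all 6 classes.

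**Figure D2:**
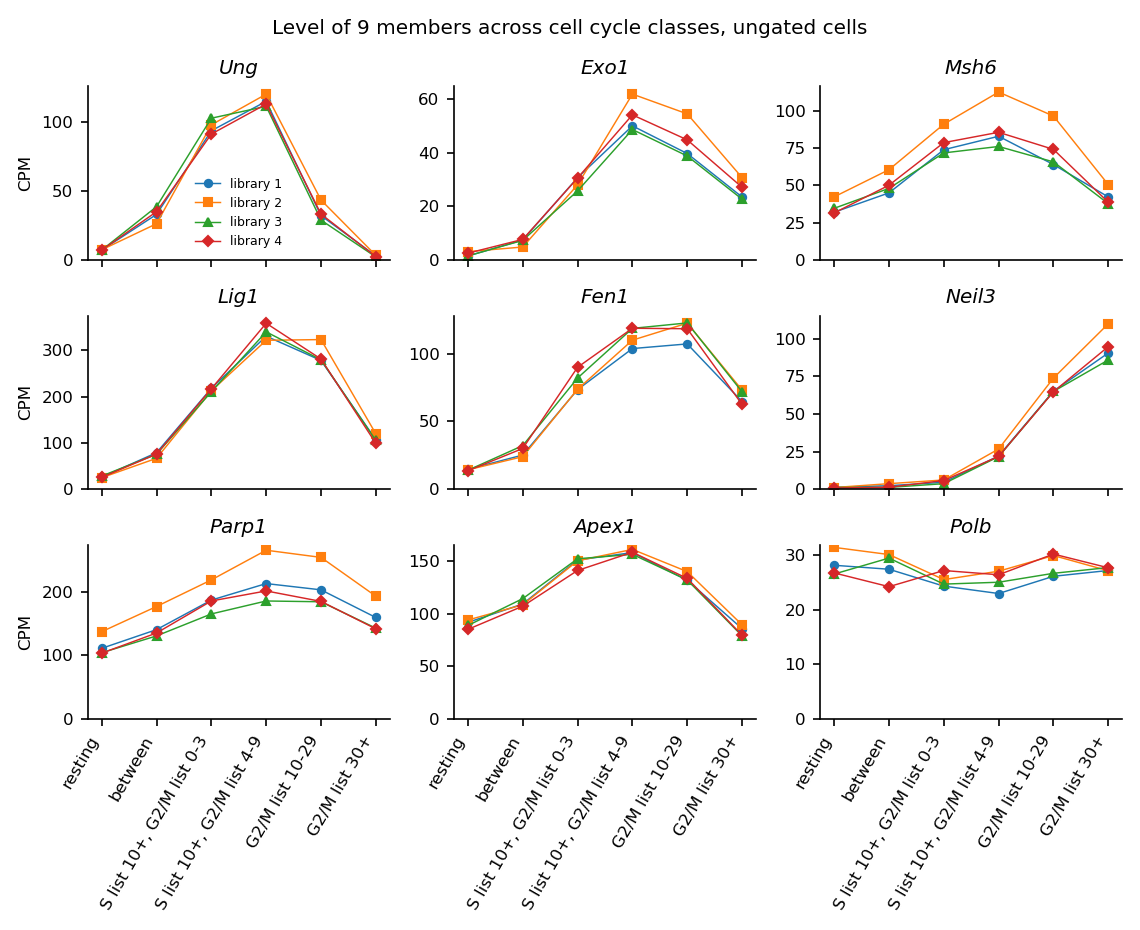
CPM (y axis, from 0, scale set per gene) of 9 repair genes over 6 cell cycle classes of ungated cells (x axis: resting, between, then by thinned UMIs of the S phase and G2/M lists), 1 line per library. Ung peaks in the fourth class and is near 2 CPM in the last, Neil3 is highest in the last, and Polb is flat in all 4 libraries.

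The sequences before the start sites of Ung and Neil3, the pair with opposite phases, are shown with those of Fen1 and its nuclease relative Ercc5, and of Msh6 and its relative Msh3, 1 of each pair replication-linked and 1 constitutive. Each is a stretch of 120 bases 5' to 3' on the strand of the gene, from the RefSeq promoter table on GRCm38.p6. Those of Ung (chr5:114130315-114130434, plus strand), Fen1 (chr19:10203922-10204041, minus), Ercc5 (chr1:44147624-44147743, plus) and Msh6 (chr17:87974930-87975049, plus) end at the base before the start site. Those of Neil3 (chr8:53639186-53639305, minus) and Msh3 (chr13:92355124-92355243, minus) run from 240 to 121 bases before it. Capitals mark matches to the motifs named after them.
Ung: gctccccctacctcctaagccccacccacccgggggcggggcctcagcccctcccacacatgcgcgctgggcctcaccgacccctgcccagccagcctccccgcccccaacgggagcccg
Neil3: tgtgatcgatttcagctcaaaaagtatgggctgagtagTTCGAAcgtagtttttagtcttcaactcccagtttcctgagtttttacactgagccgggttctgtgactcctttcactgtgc
Fen1: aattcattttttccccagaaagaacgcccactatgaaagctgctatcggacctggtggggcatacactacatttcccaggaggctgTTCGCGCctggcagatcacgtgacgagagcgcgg
Ercc5: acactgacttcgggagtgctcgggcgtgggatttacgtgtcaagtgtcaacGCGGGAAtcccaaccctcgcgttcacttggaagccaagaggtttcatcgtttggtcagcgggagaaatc
Msh6: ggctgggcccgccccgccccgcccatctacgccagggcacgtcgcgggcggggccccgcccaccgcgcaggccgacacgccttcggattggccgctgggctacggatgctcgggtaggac
Msh3: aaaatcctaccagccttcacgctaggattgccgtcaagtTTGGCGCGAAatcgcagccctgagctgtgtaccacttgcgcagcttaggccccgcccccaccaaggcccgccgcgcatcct

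The first motif was the E2F type known from genes of DNA replication, searched on both strands as TTCCCGC, as TTCGCGC, also as TTGCCGC and lastly as TTGGCGC, in the 250 bases before the start. The second was the CHR type known from late cell cycle genes, TTTGAA or TTCGAA on both strands. Entries were found for 26 of the 31 members, and none for Exo1, Polb, Xpc, Ddb2 and Ercc3. An E2F-type match was present for 1 of 5 replication-linked members (Fen1) and 6 of 21 constitutive ones (Msh3, Nthl1, Apex1, Ercc1, Ercc2, Ercc5), against 7.89% of all windows of this length and 9.01% of genes. The 2 matches of Msh3 overlap, 1 on each strand. A CHR-type match was present for 2 of 5 replication-linked members (Neil3 and Fen1, the latter before another start than the one shown) and 2 of 21 constitutive ones (Apex1 and Ercc5), against 17.1% of windows and 19.6% of genes. The windows of Ung and Msh6 held neither motif. With 5 replication-linked members these counts are too small to set the sets apart. A match is only a run of letters, and its absence says nothing of the factor.

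Other genes of the 3 pathways, a list of 48 with none of the members, gave the setting. In ungated cells 19 of 47 considered were higher in cycling cells and 1 lower, against 8.36% and 6.49% of all genes, and 11 were higher in all 6 gates. How many of them passed the level filter through cycling cells alone was not counted, nor was the share of all genes higher in all 6 gates. The largest differences in ungated cells were those of the clamp loader subunits Rfc4 (2.28) and Rfc5 (2.20), the polymerase subunits Pole (2.39) and Pold1 (2.28), the single-strand binder Rpa2 (1.93) and Pcna (1.94). Pcna went from a median of 81.1 to 324 CPM. All of these serve replication as well as repair.

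In resting cells, the lymphoid-gated, B-gated and megakaryocyte-gated cells differed from the stem-gated ones in few members, among them Xpc and Parp1. Higher were 1 of 28 members in lymphoid-gated cells (5.76% of genes), 3 of 26 in B-gated cells (6.32%) and 2 of 26 in megakaryocyte-gated cells (2.47%). Lower were 4 of 25 in the Irf8-Ccr2 gate (23% of genes), 6 of 25 in the dendritic gate (27.1%) and 19 of 24 in the plasma gate (74%). In the latter gates the median gene was lower too. Xpc, the lesion sensor of global nucleotide excision repair (chr6:91489305-91515888 on GRCm38, GENCODE M21), was higher in lymphoid-gated than in stem-gated resting cells, and it was the only 1 of 28 members considered that was called there, when 5.76% of genes were higher and 8.31% lower. Its level was 67.6, 84.3, 60.8 and 59.7 CPM in stem-gated cells and 194, 214, 177 and 171 CPM in lymphoid-gated cells of libraries 1 to 4. The ranges were far apart, a median log2 difference of 1.51. That no other member was called depended on the gate: 3 members were called with 1 more marker gene asked for or with a second random thinning. There were 3 without library 2 and 2 without library 3, but fewer libraries then had to agree, which makes a call easier. Against the same stem-gated cells Xpc was also higher in B-gated cells (182, 141, 104 and 136 CPM, log2 0.97). It was lower in conventional dendritic cells (12.8, 9.59, 18.5 and 8.72 CPM, log2 -2.48) and in plasma cells (median 9.13 CPM). Resting megakaryocyte-gated cells held 48.1, 30.5, 17.7 and 39.2 CPM from 55 UMIs in all and were not called. In the order of medians the neighbours lymphoid and B overlapped, as did B and ungated (93.7 CPM); stem-gated cells lay above the megakaryocyte-gated ones without overlap.

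Parp1 (chr1:180568924-180601254, same annotation) stood out in the B lineage. It was at 88.6, 117, 82.1 and 91.6 CPM in stem-gated resting cells and 620.4, 849, 498 and 676 CPM in B-gated ones, a log2 difference of 2.82. The B-gated range lay above that of every other gate, the next being lymphoid-gated cells with a median of 164 CPM. The B gate mixed 2 kinds of resting cell: 73 cells with a UMI of Vpreb1, Igll1 or Rag1, genes of early B cells, held Parp1 at 844 CPM (95% Poisson interval 765 to 929), and the 32 without, in which the mature B cell gene Ms4a1 stood at 654 CPM, held it at 214 (160 to 281). Xpc split the same way, at 168 CPM (134 to 208) and 82.3 (50.3 to 127). These intervals cover counting error over pooled libraries only. Neil1 was called higher in B-gated cells as well, on 12 UMIs (14.8, 14.9, 12.98 and 23.7 CPM against 6.45, 7.85, 4.01 and 4.54). In all 3 of 26 members were higher in resting B-gated cells, against 6.32% of genes, and 0 were lower, against 9.12%. Without library 3, when fewer libraries had to agree, the count was 5, and with cells thinned to 3000 UMIs it was 1. A list of genes typical of free RNA (hemoglobin genes, S100a8, S100a9 and Igkc) was also high in this gate. Its summed level was 10360 CPM in resting B-gated cells, against 177 in stem-gated cells. The libraries differed, with 15629 and 16997 CPM in libraries 1 and 3 but 1757 and 1773 in libraries 2 and 4. Igkc is an immunoglobulin light chain gene that B cells express themselves, so this sum does not measure free RNA alone. The part of free RNA in the levels of Parp1, Xpc and Neil1 was not tested.

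**Figure D3:**
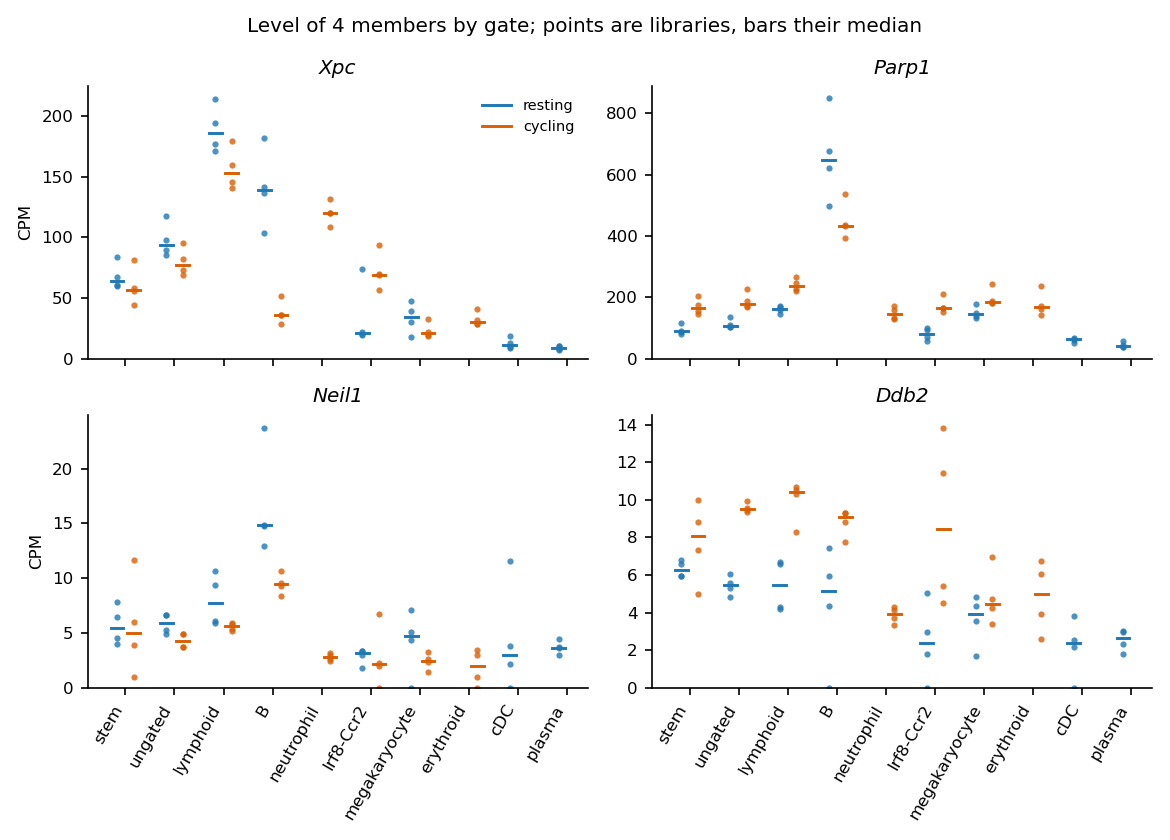
CPM (y axis, from 0) of Xpc, Parp1, Neil1 and Ddb2 in 10 gates (x axis), resting cells in blue and cycling cells in orange; each point is a library, each bar the median of 4, and classes with under 20 cells in any library are left out. Xpc is highest in lymphoid-gated cells of both states, and Parp1 in B-gated cells of both states.

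Outside the lymphoid gates many calls of the resting lineages were lost relative to the median gene or under other settings. The lower Xpc of dendritic cells (log2 -2.48) kept its call relative to that median. Megakaryocyte-gated cells were higher in Ung (14.4, 13.1, 10.6 and 10.2 CPM against 4.01, 4.60, 3.58 and 2.27, log2 1.48, 18 UMIs) and in Parp1 (log2 0.67), 2 of 26 members against 2.47% of genes, and 0 members were lower, against 5.27%. Ung passed the filter only through the megakaryocyte-gated cells, and at 5 CPM or more on both sides Parp1 was 1 of 25, against 2.17% of such genes. With 1 fewer marker gene asked for 0 were called, and without library 3, when fewer libraries had to agree, there were 4. Between ungated and stem-gated resting cells 0 of 28 members were called, against 1.78% of genes higher and 3.4% lower. In the Irf8-Ccr2 gate 4 of 25 members were lower (Msh3, Msh6, Nthl1, Ddb1) against 23% of genes, and in conventional dendritic cells 6 of 25 (Msh3, Nthl1, Lig3, Xpc, Ercc6, Ercc8) against 27.1%. No member was higher in either, against 9.99% and 10.7% of genes. Nthl1, and Ercc8 in the dendritic cells, passed the filter only through the stem-gated cells. At 5 CPM or more on both sides 3 of 21 and 4 of 21 members were lower, against 15.8% and 18.8% of such genes. The median gene was lower in these gates too, by 0.41 and 0.49, and relative to it only Nthl1, a glycosylase of oxidised pyrimidines, was lower in both (-1.34 and -2.05), and it had passed the filter only through the stem-gated cells where it was high, together with Xpc in the dendritic cells (-2.02). Relative to the same median Polb was higher in the Irf8-Ccr2 gate (1.07). On that scale 15.2% of genes were higher and 14.7% lower in the Irf8-Ccr2 gate, and 17.1% and 16.6% in the dendritic cells.

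Plasma cells needed the same correction. Immunoglobulin RNA took 53.3% of their UMIs, and its part in the following was not tested. The median gene was 1.53 lower than in stem-gated cells and 74% of genes were called lower, as were 19 of 24 members, with 4.52% of genes and 0 members higher. At 5 CPM or more on both sides 15 of 18 members were lower, against 69% of such genes. Relative to the median gene, Apex1 (-1.55) and Xpc (-1.32) were lower and Fen1 (1.65) was higher, and 0 other members were called, against 15.4% of genes lower and 17.8% higher. Fen1 itself was at a median of 14.8 CPM in plasma cells and 13.1 in stem-gated cells.

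The level of Xpc followed the number of lymphoid-primed markers a cell held. Over the stem-gated, ungated and lymphoid-gated resting cells together, its median was 74.1 CPM in cells with 0 of the markers, then 97.3 with 1, 129 with 2, 176 with 3 and 199 with 4 or more. Cycling cells gave 61.7, 88.5, 114, 136 and 183 CPM. Each of the 4 libraries was higher at every step in both states. Parp1 was at 99.6 CPM with 0 markers and 200.3 with 4 or more in resting cells, and at 178 and 268 in cycling cells, with most of the resting difference at the last step. Lig1 in cycling cells went the other way, from 230.2 to 152 CPM, and Fen1 from 96.4 to 74.3. Both genes also varied over the cell cycle classes above, and the phase makeup of the marker classes was not compared. The markers are detected more often in cells with more of their RNA, so these classes grade the programme without dividing cell types.

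**Figure D4:**
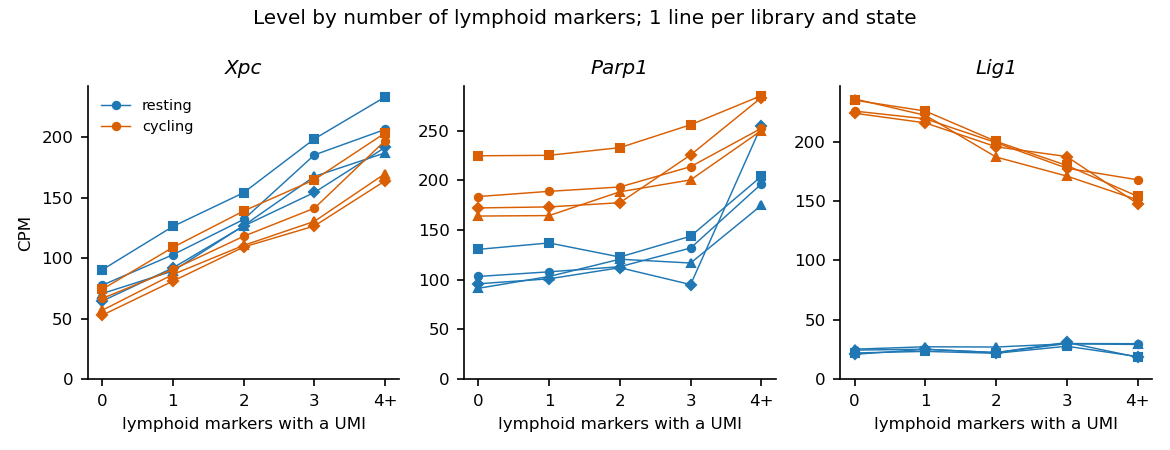
CPM (y axis, from 0) of Xpc, Parp1 and Lig1 by the number of lymphoid-primed marker genes with a UMI (x axis) in resting (blue) and cycling (orange) cells, 1 line per library. Xpc rises at each step in both states, while Lig1 falls in cycling cells and stays under 35 CPM in resting ones.

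Among cycling cells, set against the ungated cycling cells, Xpc again differed in the most lineages. It was higher in lymphoid-gated cells (159, 179, 146 and 141 CPM, log2 0.97), the only 1 of 30 members called there, against 2.68% of genes higher and 2.83% lower. It was lower in B-gated (36.4, 51.5, 36.5 and 28.9 CPM, log2 -1.06), megakaryocyte-gated (18.6, 32.6, 22.0 and 19.7 CPM, log2 -1.72) and erythroid cells (median 30.2 CPM, log2 -1.29), and the ungated cells held a median of 77.4 CPM. B-gated cells thus lay above the stem-gated cells when resting and below the ungated cells when cycling. The makeup of the B gate differed between the states: 1243 of the 1268 cycling cells held a UMI of Vpreb1, Igll1 or Rag1, and these had Xpc at 37.3 CPM, against 168 in the resting cells with such a UMI. Neutrophil-gated cycling cells held Xpc at 121, 132, 108 and 119.97 CPM, second to the lymphoid-gated cells and not overlapping with them, with log2 differences that reached the call only when centred on the median gene (0.76, when 8% of genes were higher and 8.84% lower).

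Parp1 kept its place in the B lineage, at 432, 536, 393 and 435 CPM in cycling B-gated cells against a median of 180.3 in ungated ones (log2 1.23). With it Neil1 (0.98) and Xrcc1 (0.81) were higher, and Ercc4, a nuclease of the incision step, was lower with Xpc (-0.74), 3 higher and 2 lower of 31 members against 6.12% and 15.5% of genes. Neil1 passed the filter only through the B-gated cells, and at 5 CPM or more on both sides 2 of 30 members were higher, against 5.23%. Neil3 was lower in neutrophil-gated cells (29.1 against 54.6 CPM, log2 -0.86) and erythroid cells (17.8 CPM, log2 -1.67). Within G2/M alone it stood at 34.2, 46.9, 37.5 and 35.4 CPM in neutrophil-gated cells and at 78.1, 94.2, 74.7 and 80.6 CPM in ungated cells, so that the ranges did not overlap within that phase either. Ddb2, which finds ultraviolet photoproducts, was lower in neutrophil-gated cells (3.94 against 9.51 CPM, log2 -1.11), and Mutyh in megakaryocyte-gated cells (2.95 against 7.14 CPM, log2 -1.02). These were 2 lower of 30 members in neutrophil-gated cells (14.7% of genes), 2 lower of 30 in megakaryocyte-gated cells (5.85%) and 2 lower of 29 in erythroid cells (16%). The last count was 4 without library 4, when fewer libraries had to agree. Ddb2 in the neutrophil-gated and Mutyh in the megakaryocyte-gated comparison passed the filter only through the ungated cells. At 5 CPM or more on both sides 1 of 28 members was lower in either, against 12% and 4.1% of such genes. No member was higher in these 3 gates, against 5.18%, 3.76% and 6.08% of genes. Stem-gated cycling cells differed from ungated ones in 0 of 30 members, when 2.7% of genes were higher and 0.62% lower, and the Irf8-Ccr2 cycling cells in 0 of 30, against 6.28% and 8.21%.

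The spread between libraries was close to that of other genes. The median ratio of the highest to the lowest library was slightly larger over the members than over all genes in each of the 5 classes looked at, for instance 1.21 against 1.19 in ungated cycling and 1.26 against 1.22 in ungated resting cells. In ungated cycling cells 0 of 30 had a highest library at least 1.5 times the lowest, against 3.55% of genes, and in ungated resting cells 1 of 28, against 6.7%. That one was Ercc6, the stalled-polymerase factor, at 14.0, 20.8, 12.5 and 15.7 CPM. In stem-gated resting cells it was Neil1 alone of 27 members (6.45, 7.85, 4.01 and 4.54 CPM, 13.5% of genes). In the smaller lymphoid gate 7 of 28 members passed in resting cells, against 26% of genes, and 2 of 31 in cycling cells, against 13.2%. Library 2 was the highest for 20 of the 28 members in ungated resting cells, as it was for most genes.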

How the data were processed

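The matrix holds raw UMI counts per gene and cell barcode, deposited by the authors as one table of 4 barcode suffixes; Cell Ranger 6.1.2 and the build mm10 are named in the submitters' processing notes. The members and gene lists were chosen with earlier results of these data known, and the gate limits were set after counts had been seen. A barcode was kept as a cell from 500 genes upward, if mitochondrial UMIs made up 10% or less, and each cell was thinned to 4000 UMIs for gating only. Resting cells had at most 5 UMIs of the S phase list and 3 of the G2/M list, G2/M cells at least 10 of the latter, and S phase cells at least 10 of the former with fewer of the latter. Full counts were then summed per library, gate and state and divided by all UMIs (CPM). Ratios used a pseudocount of 1 CPM, genes needed a mean of 5 CPM over both sides, and each library needed 20 cells on either side. The named members are those called at 1.5-fold in 4 of 4 libraries, with the other pathway genes named by the size of their difference. Intervals are exact Poisson at 95% and cover counting error only. The libraries held 112027160 to 144385614 UMIs, with a median of 10040.5 to 10491 per kept cell of at least 4000 UMIs. Scrublet called 1 doublet in all, so that doublets were in effect not removed. The procedure was tested on simulated data. No count model was run, because no library could be tied to a sample. Python 3.11.15, scanpy 1.11.5, numpy 2.4.6, scipy 1.17.1 and pandas 2.3.3 were used. Alternatives are given at the end. Some genes of these pathways are not reported here.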

Additional observations from a re-analysis of the deposited data

Results flagged for a closer look

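For 5 of 31 members every library was higher in cycling cells of one gate and lower in those of another, as for 14.1% of genes considered in 2 or more gates. These differences were not tested. The median log2 ratios of Xpc differed by 3.37 (1.53 in the Irf8-Ccr2 gate and -1.84 in B-gated cells). Those of Parp1 differed by 1.68 between the same gates (1.10 and -0.58). Lig3 differed by 0.79 (0.67 in the Irf8-Ccr2 gate and -0.11 in ungated cells), Ercc3 by 0.60 (0.34 in stem-gated and -0.26 in B-gated cells) and Ercc2 by 0.53 (0.21 in stem-gated and -0.32 in lymphoid-gated cells). The Irf8-Ccr2 and B gates differed in their own markers between resting and cycling cells.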

How the results depend on the processing

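Of 1737 alternative values for 111 named results, 1521 lay within the spread of the libraries, 206 moved beyond it and 10 reversed. Calls were lost under at least 1 alternative for 14 of 49 results between cycling and resting cells, 3 of 15 between phases, 28 of 35 between resting lineages and 4 of 12 between cycling lineages. The cause of these losses was not tested. A result that only fell under the level filter, as with the filter of 20 CPM, was not counted as lost, so these are lower limits. Leaving out a library could not lose a call, since fewer libraries then had to agree. Counts of called members moved as follows, with the reported count in brackets. Centring on the median gene gave 7 (13) for cycling over resting Irf8-Ccr2 cells, 2 (6) for dendritic, 2 (4) for Irf8-Ccr2 and 3 (19) for plasma over stem-gated cells, and 1 (0) for stem-gated over ungated cycling cells. It also turned 10 plasma values positive: Msh3 0.69, Pms2 0.28, Nthl1 0.067, Lig1 0.092, Lig3 0.18, Parp1 0.48, Ddb1 0.056, Xpa 0.18, Ercc1 0.60 and Ercc3 0.29. A filter of 20 CPM gave 6 (10) for cycling over resting B-gated cells. Over stem-gated cells it gave 2 (6) for dendritic, 1 (2) for megakaryocyte-gated, 1 (4) for Irf8-Ccr2 and 7 (19) for plasma cells, and over ungated cells 3 (5) for B-gated, 1 (2) for megakaryocyte-gated and 1 (2) for neutrophil-gated cells. A pseudocount of 5 CPM gave 3 (5) for B-gated and 1 (2) for megakaryocyte-gated over ungated cells, and 3 (6) for dendritic and 2 (4) for Irf8-Ccr2 over stem-gated cells. A pseudocount of 0.1 CPM gave 1 (0) for both stem-gated against ungated comparisons. With 1 more marker gene per gate there were 3 (1) for lymphoid-gated and 2 (4) for Irf8-Ccr2 over stem-gated cells, and with 1 fewer 2 (4) for stem-gated G2/M over S phase, 0 (2) for megakaryocyte-gated over stem-gated and 1 (2) for neutrophil-gated over ungated cells. A mitochondrial limit of 5% gave 2 (1) for lymphoid-gated over stem-gated cells. Of 2 alternatives chosen after seeing the data, a second random thinning gave 2 (4) for stem-gated G2/M over S phase and 3 (1) for lymphoid-gated over stem-gated cells. Thinning to 3000 UMIs gave 4 (2) for ungated G2/M over S phase, and over stem-gated cells 1 (3) for B-gated, 3 (6) for dendritic, 4 (1) for lymphoid-gated and 1 (0) for ungated cells. Leaving out each library in turn gave, over stem-gated cells, 5 to 7 for Irf8-Ccr2, 1 to 3 for lymphoid-gated, 0 to 1 for ungated, 3 to 5 for B-gated and 2 to 4 for megakaryocyte-gated cells, and over ungated cells 2 to 4 for erythroid and 0 to 1 for stem-gated cells. A call then needed fewer libraries to agree, so these counts could rise but could fall only through the level filter. Comparisons with under 20 cells in a library were not run, which under several settings left out B-gated, Irf8-Ccr2, megakaryocyte-gated and dendritic resting cells. No paired analysis was possible because the barcode suffixes could not be tied to samples, and for the same reason edgeR and DESeq2 were not run. The small resting gates set the depth limit.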
